A study of Fukomys damarensis and Heterocephalus glaber and Cavia porcellus with 28 samples.

Results

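The complement and coagulation genes form a set of 49 mouse gene symbols, chosen by name: the components, inhibitors and receptors of the complement cascade, the clotting factors and fibrinogen chains, the natural anticoagulants, and the genes of clot removal. Of these, 42 matched a mouse Ensembl identifier among the 13928 genes of the heart and liver tables, and they are compared here between 4 rodent species within each tissue. C1qa, C9, Cfb, F7, F13b, Tfpi and Thbd were not analysed here.

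RNA was extracted from flash-frozen heart and liver, depleted of ribosomal RNA and sequenced in 2 African mole-rats (naked and Damaraland) and in guinea pig and mouse, the outgroups. The hearts numbered 3 for naked mole-rat, 5 for Damaraland, 3 for guinea pig and 3 for mouse, and the livers 4, 5, 3 and 2 in that order. The 28 libraries came from 18 animals, of which 10 gave both tissues. The naked mole-rats were 13 to 17 months old, the Damaraland mole-rats 36 to 48 months, the guinea pigs 2.3 months and the mice 2 months, so species and age cannot be told apart in any comparison. The labels give 1 Damaraland mole-rat a different age for its heart than for its liver. All libraries came from males except 1, the liver of replicate 4 of the Damaraland mole-rat, which came from a female. Strain and colony are not given in the sources used here.

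Complement is a chain of plasma proteases and binding proteins that labels microbes and damaged cells and can end in a pore in the target membrane. Coagulation is a parallel chain that ends with thrombin cutting fibrinogen into fibrin, held in check by antithrombin and other inhibitors and reversed by plasmin. Hepatocytes make most of the soluble proteins of both chains, while macrophages make C1q and factor XIII A, endothelial cells make von Willebrand factor and factor VIII, and fibroblasts make several complement proteins locally. In the heart these transcripts are usually rare next to the liver.

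Values are the deposited variance-stabilised expression values, on a scale that acts as log2 for abundant genes. The lowest possible value, that of a gene without reads, was 5.3645 for heart and 4.2893 for liver and is the floor from here on. Differences of rare genes are compressed: doubling from 10 scaled reads (reads corrected for library depth by a size factor) moves the value by 0.282 in heart and 0.392 in liver, and doubling from 1000 scaled reads moves it by 0.946 and 0.973. Total reads per library, recovered from the values, ran from 4089633 (naked mole-rat heart replicate 3) to 26985779 for hearts and between 11220505 and 21467939 for livers. A gene was called different at an adjusted p under 0.05 in limma, fitted across all genes of the tissue, together with a difference of 1 or more. The test covered the 10667 heart genes and 10887 liver genes whose average over the tissue's libraries was 1 or more above the floor. All 42 matched members passed this filter in liver and 32 in heart. Masp2, C8a, C8b, C4bp, F11, F12, Klkb1, F9, Proc and Cpb2 did not pass in heart. The species means of these 10 ran from 5.54 (Klkb1 in guinea pig) to 7.49 (C8b in naked mole-rat), and each was highest in the naked mole-rat. A member could pass through a single species in which it is high, so the counts below describe the tested members and not the whole set. The tissue labels held in the markers: summed hepatocyte markers were 1095653 to 3264764 scaled reads in liver and 405 to 34360 in heart, and summed cardiomyocyte markers were 840156 to 2689521 in heart and 734 to 4774 in liver.

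In the heart, 14 members were higher and 3 lower in the mole-rats than in the outgroups, comparing the mean of the 2 mole-rat species with the mean of the 2 outgroup species. These 17 of the 32 tested members are 53.1%, beside 23.4% of all genes tested (10.8% higher and 12.6% lower). The median difference was 0.90 over the tested members and -0.01 over all tested genes. The higher members were C2, C4b, C3, C6, Vtn, F2, F10, Vwf, Fga, Fgb, Fgg, Serpinc1, Serpind1 and Plg, and the lower ones C1qb, Serping1 and F3. Under the stricter demand that each mole-rat differ from each outgroup in the same direction, 6 members were called, all higher: C2, C4b, C6, F10, Vwf and Plg. The same demand was met by 4.68% of all genes (2.06% higher and 2.62% lower). C6 was not in this set with no filter on low values, with quantile normalisation, with voom on the recovered reads, or in 10 of the 14 fits that left out a single heart. C2 was not in it without guinea pig replicate 3 or without naked mole-rat replicate 2, and Vwf was not without Damaraland replicate 4 or with a block for replicate number. C4b, F10 and Plg were in it in each of those 14 fits. When only genes at least 1 above the floor in every species were tested, 22 members entered and 11 were called on average, beside 19.3% of all genes. Of these, C2, C4b and Vwf met the stricter demand, beside 3.75% of all genes. In bulk tissue, fewer cells of a type and less RNA per cell cannot be told apart.

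**Figure D1:**
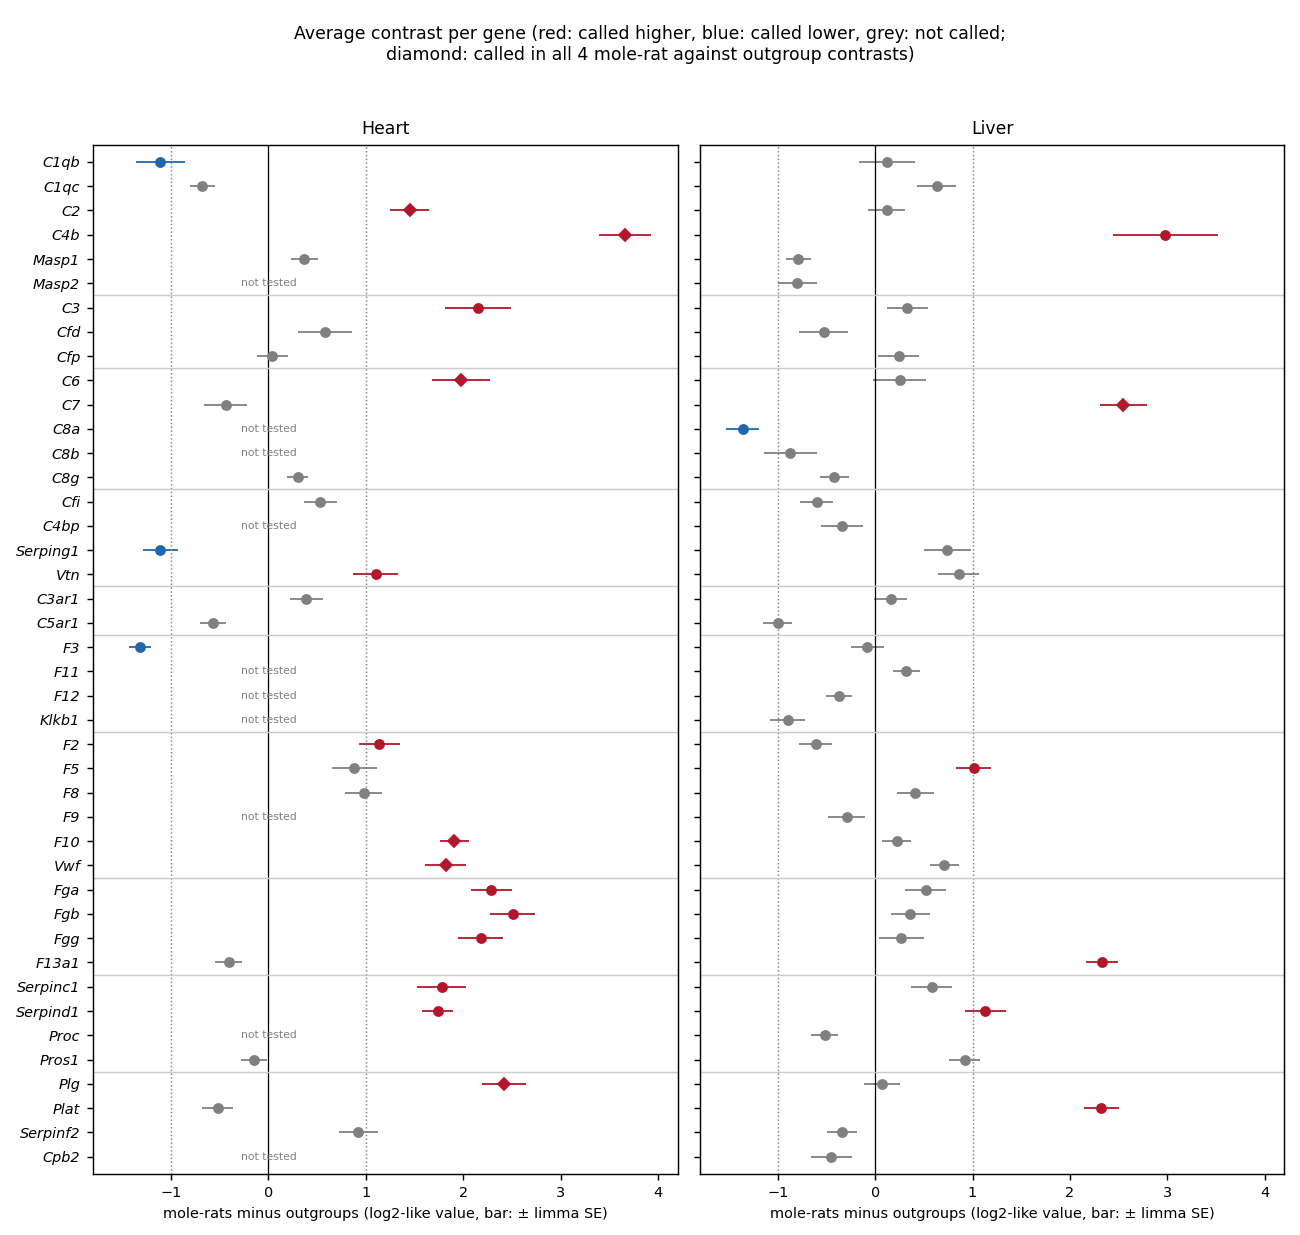
Difference between the mole-rat mean and the outgroup mean on the log2-like scale for each tested complement or coagulation gene, in heart (32 genes) and liver (42 genes), with its standard error and the threshold of 1 drawn as a line. Most heart differences lie above 0, with C4b at 3.66, and the liver differences spread on both sides of 0 apart from C4b, C7, F13a1 and Plat, which lie above 2.

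Hepatocyte marker genes moved in the same direction in these hearts. Of 12 tested markers of 14 matched, 11 were higher in the mole-rat hearts on average and none was lower, with a median difference of 1.64. Over all genes tested in heart, 10.8% were higher and 12.6% lower. Of these markers, 1 was called higher in all 4 mole-rat against outgroup contrasts, beside 2.06% of all genes. Called higher in the naked mole-rat alone were 11, beside 4.87% of all genes, and in the Damaraland mole-rat alone 0, beside 3.86%. Their summed level was 12245 to 34360 scaled reads per library in naked mole-rat hearts, 2071 to 6127 in Damaraland hearts, 662 to 2500 in guinea pig hearts and 405 to 1377 in mouse hearts. Serpina6, a hepatocyte-made hormone carrier, was at 0 in every guinea pig heart, and no other marker of the list was at 0 throughout a species. Albumin (Alb), the defining hepatocyte product, averaged 14.14 in naked mole-rat hearts, 11.33 in Damaraland hearts, 9.77 in guinea pig hearts and 8.84 in mouse hearts. The part of these transcripts in the heart results was not tested, and heart levels relative to the liver of the same species are given after the single genes.

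The classical pathway starts when C1q binds its target and lets C4 and C2 be cut into the convertase that acts on C3. C4b, the mouse gene for complement C4, had the largest difference among the members in heart. Its values were 11.71, 11.86 and 11.60 in the naked mole-rat hearts and 10.97, 12.54, 10.91, 11.54 and 11.87 in the Damaraland hearts. The guinea pig hearts had 7.61, 9.12 and 7.35 and the mouse hearts 7.93, 7.90 and 8.01. Every mole-rat heart was above every outgroup heart, and the mole-rat species overlapped each other. The mole-rat mean was higher by 3.66 (SE 0.27, adjusted p = 5.54e-09). In scaled reads the species means were 3304 for naked mole-rat and 3236 for Damaraland against 229.7 for guinea pig and 171.3 for mouse. How reads shared between C4b and its near-identical copy C4a were counted is not given in the sources used here, so the C4b values are uncertain in that respect.

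C2 supplies the protease of the same convertase. Its values were 7.91, 8.27 and 7.90 in naked mole-rat hearts and 7.98, 8.02, 8.08, 8.35 and 9.42 in Damaraland hearts. Guinea pig hearts had 7.04, 7.04 and 6.93, and mouse hearts 6.89, 6.52 and 6.06. No mole-rat heart fell among the outgroup hearts, and 1 Damaraland heart stood above the rest of its group. The difference was 1.45 (SE 0.20, adjusted p = 9.46e-06), and 1.32 without that heart.

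C1qb, 1 of the C1q chains made by macrophages, was lower in the mole-rat hearts by 1.11 on average, and the naked mole-rat was below each other species. Its naked mole-rat values were 6.98, 7.12 and 8.58. The other ranges were 8.09 to 9.61 in Damaraland, 8.91 to 9.43 in guinea pig and 8.94 to 9.63 in mouse hearts. Naked mole-rat replicates 1 and 2 lay below all other hearts, and replicate 3, the shallowest library, lay among the Damaraland hearts. The average difference was -1.11 (SE 0.25, adjusted p = 0.00103), and it was -0.97, short of the size threshold, without naked mole-rat replicate 1. C1qc, another C1q chain, was called lower in the naked mole-rat than in each other species, with 7.75, 7.77 and 7.85 against 8.81 to 9.65 in all other hearts. Summed macrophage markers, from 10 of 16 listed genes, were 1053 to 1671 scaled reads in naked mole-rat, 1362 to 2975 in Damaraland, 1982 to 2049 in guinea pig and 1848 to 2305 in mouse hearts, with none at 0 throughout a species. Their part in the C1q results was not tested.

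Masp1, a protease of the lectin pathway, differed between the mole-rats, with naked mole-rat hearts at 8.36 ± 0.31 (SD, n = 3) and Damaraland hearts at 9.55 ± 0.18 (SD, n = 5). That difference was -1.19 (SE 0.18, adjusted p = 2.67e-05), while the average difference from the outgroups was 0.37 and below the size threshold.

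C3 is the central complement protein, on which all starting routes converge. Naked mole-rat hearts had 12.77, 12.95 and 12.29, and Damaraland hearts had 10.25, 10.28, 9.68, 10.28 and 12.31. For guinea pig hearts they were 7.96, 9.34 and 8.07, and mouse hearts 10.95, 10.59 and 9.90. The mean was highest in the naked mole-rat and lowest in the guinea pig, Damaraland and mouse values overlapped, and the highest Damaraland heart reached the lowest naked mole-rat heart. The naked mole-rat was called above, and the guinea pig below, each of the other species. The average mole-rat difference of 2.15 (SE 0.34, adjusted p = 3.64e-05) therefore did not separate the Damaraland mole-rat from the mouse. Damaraland replicate 5 stood apart from the rest of its group, and the difference was 1.93 without it.

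Factor D (Cfd), the protease that starts the alternative pathway, did not pass the test on average (0.58, adjusted p = 0.0828). Naked mole-rat hearts were at 6.58 ± 0.42 (SD, n = 3), Damaraland hearts at 8.86 ± 0.60 (SD, n = 5), guinea pig hearts at 8.53 ± 1.06 (SD, n = 3) and mouse hearts at 5.76 ± 0.12 (SD, n = 3). The naked and Damaraland mole-rats differed by -2.28 (SE 0.38, adjusted p = 6.56e-05). Fat cells are a known source of factor D, and the summed adipocyte markers, 7 of 9 listed, were 7127 to 10056 scaled reads in naked mole-rat, 7456 to 11882 in Damaraland, 41000 to 42929 in guinea pig and 91837 to 106492 in mouse hearts. Retn was at 0 in every naked mole-rat and guinea pig heart and Lep in every mouse heart. Most of these sums, which were highest in mouse, came from Lpl and Fabp4. Adipoq had means of 6.23, 7.28, 5.98 and 5.60 in naked mole-rat, Damaraland, guinea pig and mouse. Cidec had 6.25, 7.40, 6.39 and 5.46 in the same order. Both were highest in Damaraland and lowest in mouse. In guinea pig hearts Cfd was near its Damaraland mean, while Adipoq and Cidec were nearer their naked mole-rat means. Of 4 tested adipocyte markers, 3 were lower in the naked than in the Damaraland heart and 2 were called higher in the Damaraland heart alone. The part of fat cells in the Cfd result was not tested. Properdin (Cfp), which stabilises the alternative convertase, had a difference of 0.04 with an adjusted p of 0.848.

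Among the terminal components, which assemble the membrane pore, C6 was the only member called in the Damaraland mole-rat heart alone. Its values were 7.80, 8.17, 8.08, 10.39 and 8.82 in Damaraland hearts and 7.16, 6.63 and 6.80 in naked mole-rat hearts. Those of guinea pig hearts were 5.87, 5.80 and 5.71, and mouse hearts 5.73, 5.85 and 5.71, which are close to the floor. The groups ordered as Damaraland, naked and then the outgroups, with no overlap between the first pair or between mole-rats and outgroups. On average the mole-rats differed by 1.98 (SE 0.30, adjusted p = 2.01e-05), and 1.76 without Damaraland replicate 4. The Damaraland mean was 438.4 scaled reads against 3.799 in guinea pig and 3.243 in mouse.

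C7, the next pore component, had another pattern, with naked mole-rat hearts at 9.78 ± 0.36 (SD, n = 3), Damaraland at 7.66 ± 0.62 (SD, n = 5), guinea pig at 10.93 ± 0.42 (SD, n = 3) and mouse at 7.41 ± 0.21 (SD, n = 3). It was called higher in the guinea pig than in each other species, and its average mole-rat difference of -0.44 did not pass (adjusted p = 0.0824). C8g, the light chain of C8, differed by 0.30 on average, and C8a and C8b were not tested in heart.

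Serping1, the C1 inhibitor, which also blocks contact proteases, was lower in the mole-rat hearts by 1.11 on average with the guinea pig high. The guinea pig hearts gave 10.98, 11.09 and 10.41, above all other hearts, whereas mouse hearts had 8.98, 8.99 and 9.03. The mole-rat hearts ran from 8.10 to 9.39 and overlapped the mouse. The mole-rat difference was -1.11 (SE 0.18, adjusted p = 5.4e-05). Summed fibroblast markers, 9 of 11 listed with none at 0 throughout a species, were 50182 to 125872 scaled reads in guinea pig hearts, 13363 to 26830 in naked mole-rat, 13405 to 51666 in Damaraland and 10509 to 13167 in mouse hearts. The guinea pig was also called higher for C7, and the part of fibroblast content in the C7 and Serping1 results was not tested.

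Vitronectin (Vtn), which blocks pore insertion, was higher in the naked mole-rat heart than in each other species, at 10.46 ± 0.69 (SD, n = 3) against 7.49 ± 0.37 (SD, n = 5), 7.26 ± 0.72 (SD, n = 3) and 8.48 ± 0.16 (SD, n = 3) in Damaraland, guinea pig and mouse. The naked mole-rat exceeded the mean of the others by 2.72 (SE 0.28, adjusted p = 3.06e-07). The average mole-rat difference of 1.1 did not hold for the Damaraland mole-rat, which was called above neither outgroup. It differed from the mouse by -0.99 (adjusted p = 0.00965) and from the guinea pig by 0.23 (adjusted p = 0.543). Factor I (Cfi), which cuts and inactivates the active C3 and C4 fragments, was higher in the naked than in the Damaraland heart by 1.48 (SE 0.22, adjusted p = 2.58e-05). Of the receptors for the complement peptides, C3ar1 was higher in the Damaraland heart, with a naked minus Damaraland difference of -1.24 (SE 0.22, adjusted p = 1.39e-04). C5ar1 had an average difference of -0.57, below the size threshold.

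Tissue factor (F3), which starts coagulation at a wound, was the member with the largest difference towards lower values in mole-rat hearts. Naked mole-rat hearts had 6.32, 6.41 and 6.40, and Damaraland hearts 7.59, 7.29, 7.18, 7.24 and 7.04. Guinea pig hearts had 8.20, 7.76 and 7.75, and mouse hearts 8.36, 8.32 and 8.44. Every mole-rat heart was below every outgroup heart, and the naked mole-rat was below the Damaraland mole-rat. The average difference was -1.32 (SE 0.11, adjusted p = 2.92e-08). F3 was not called in all 4 contrasts, since the Damaraland heart differed from the guinea pig by less than 1. Scaled reads averaged 21.18 for naked mole-rat, 84.11 for Damaraland, 166.8 for guinea pig and 254.8 for mouse. The contact-phase genes F11, F12 and Klkb1 were not tested in heart.

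**Figure D2:**
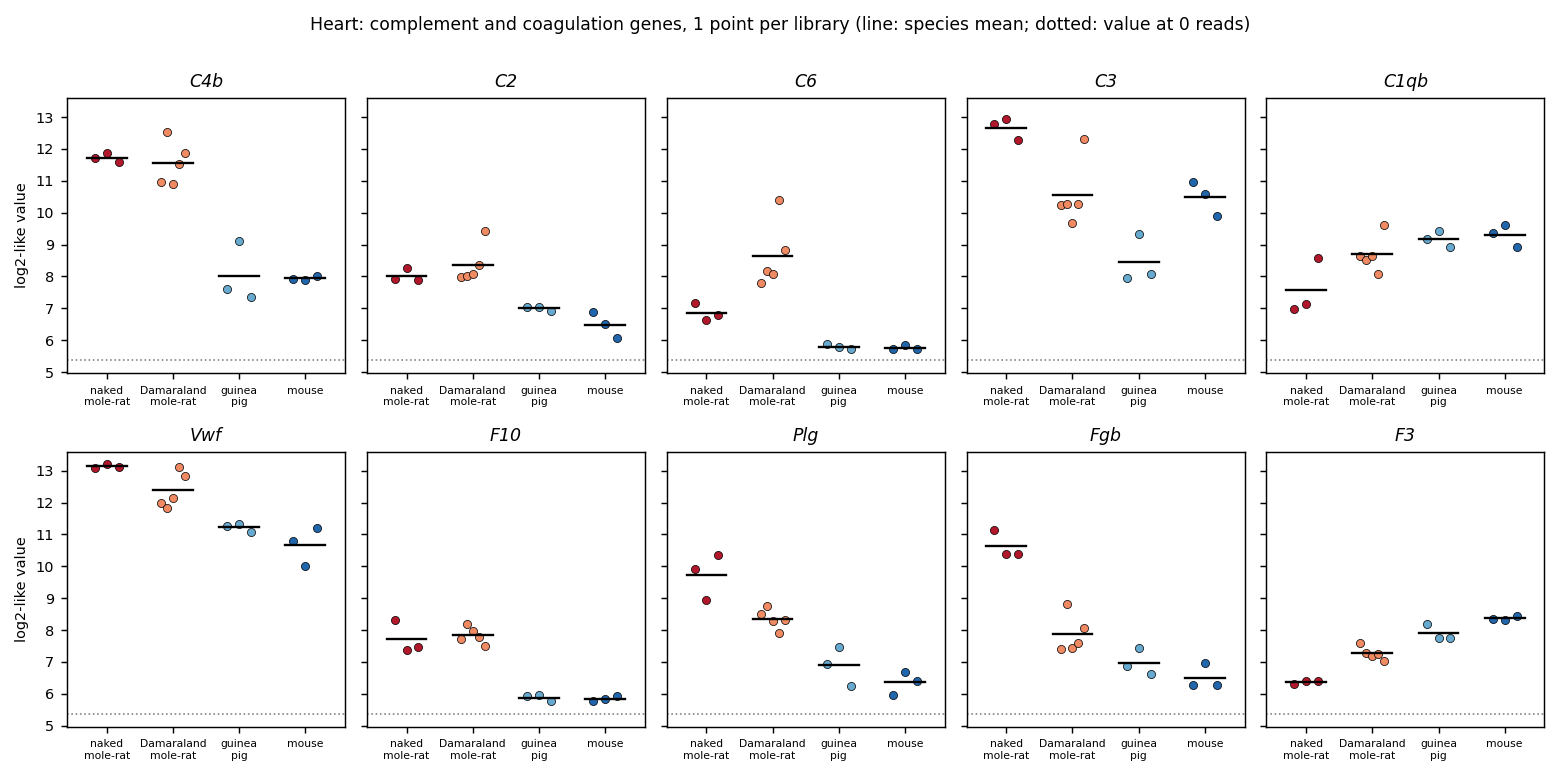
Log2-like values in heart for selected complement and coagulation genes, with 1 point per library, a line at each species mean and a dotted line at the value of 0 reads. C4b and F10 in the mole-rats lie above all outgroup libraries, F3 lies below them, and Fgb is highest in the 3 naked mole-rat hearts.

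Factor X (F10), the protease that makes thrombin from prothrombin, was higher in both mole-rats. Its values were 8.31, 7.38 and 7.46 in naked and 7.73, 8.19, 7.98, 7.78 and 7.50 in Damaraland hearts. For guinea pig hearts they were 5.93, 5.95 and 5.76, and mouse hearts 5.77, 5.85 and 5.93. The mole-rats overlapped each other and were clear of the outgroups, which lay close to the floor. The difference was 1.91 (SE 0.15, adjusted p = 9.79e-09). Prothrombin (F2) was higher in the mole-rats on average by 1.14 (SE 0.21, adjusted p = 1.56e-04) and by 0.92, short of the size threshold, without naked mole-rat replicate 1. Neither mole-rat was called above the guinea pig, whose mean was 8.14. The naked mole-rat differed from it by 0.83, under the size threshold, and the Damaraland mole-rat by -0.45 (adjusted p = 0.176). Mouse hearts had 5.91, 6.58 and 6.25 for F2, below all other hearts, and the mouse was called lower than each other species.

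Von Willebrand factor (Vwf), which tethers platelets and carries factor VIII, is a product of endothelium. Naked mole-rat hearts had 13.10, 13.21 and 13.11, and Damaraland hearts 12.00, 11.84, 12.15, 13.11 and 12.83. Those of guinea pig hearts were 11.28, 11.34 and 11.07, and mouse hearts 10.78, 10.02 and 11.19. All mole-rat hearts exceeded all outgroup hearts, and the highest Damaraland heart reached the naked mole-rat hearts. The difference was 1.82 (SE 0.21, adjusted p = 1e-06). Summed endothelial markers, 13 of 14 listed, were 12162 to 17302 scaled reads in naked mole-rat, 11021 to 14055 in Damaraland, 19035 to 23379 in guinea pig and 15383 to 19443 in mouse hearts, with none at 0 throughout a species. Of these markers 2 were called higher in the mole-rat hearts on average, Egfl7 by 1.46 and Stab2 by 1.28, and none lower, with a median difference of -0.43. Their part in the Vwf result was not tested.

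Factor VIII (F8), the cofactor that Vwf carries, was lower in the mouse heart than in each other species, at 7.23 ± 0.23 (SD, n = 3) against means of 9.79, 9.27 and 9.87 in naked mole-rat, Damaraland and guinea pig. Its average mole-rat difference was 0.98, just short of the size threshold, and 1.29 with voom on the recovered reads. Leaving out a single library took it to between 0.81 and 1.10. Factor V (F5), the cofactor of factor X, was called in the naked mole-rat heart alone. Its mean was 9.24 ± 0.69 (SD, n = 3) against 7.38, 7.76 and 7.10 in Damaraland, guinea pig and mouse, and its average difference of 0.88 was below the size threshold. That difference was 1.15 with voom, 1.08 without naked mole-rat replicate 2 and 1.02 without mouse replicate 1, each past the threshold.

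The 3 fibrinogen chains had 1 pattern in heart: all were higher in the naked mole-rat than in each other species. For Fgb, naked mole-rat hearts had 11.14, 10.39 and 10.38, and Damaraland hearts 7.42, 8.82, 7.44, 7.59 and 8.06. The guinea pig hearts gave 6.87, 7.44 and 6.62, and mouse hearts 6.27, 6.98 and 6.27. The naked mole-rat hearts were far above the rest, and the lowest Damaraland heart lay just under the highest guinea pig heart. The average mole-rat difference was 2.51 (SE 0.23, adjusted p = 6.06e-08) and the naked minus Damaraland difference 2.77 (SE 0.30, adjusted p = 7.37e-07). Fga and Fgg had average differences of 2.29 (SE 0.21, adjusted p = 5.32e-08) and 2.18 (SE 0.23, adjusted p = 3.34e-07). In scaled reads the naked mole-rat means were 1434, 1565 and 1405 for Fga, Fgb and Fgg, and the Damaraland means 148.2, 176.4 and 161.6. The A subunit of factor XIII (F13a1), which crosslinks fibrin, was higher in the naked than in the Damaraland heart by 1.26 (SE 0.19, adjusted p = 2.78e-05), but its average difference was -0.41, since mouse hearts were highest at 9.82 ± 0.29 (SD, n = 3).

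The anticoagulants antithrombin (Serpinc1) and heparin cofactor II (Serpind1), both thrombin inhibitors, were higher in the mole-rats on average and were called in the naked mole-rat alone. For Serpinc1 the naked mole-rat hearts were at 9.38 ± 0.50 (SD, n = 3), Damaraland at 7.26 ± 0.44 (SD, n = 5), guinea pig at 6.35 ± 0.28 (SD, n = 3) and mouse at 6.72 ± 0.87 (SD, n = 3), a mole-rat difference of 1.78 (SE 0.25, adjusted p = 7.66e-06). Serpind1 differed by 1.74 (SE 0.16, adjusted p = 8.55e-08), with means of 9.06, 6.85, 6.40 and 6.03 in the same order. For both genes the Damaraland mole-rat was called above neither outgroup. Its differences from guinea pig and mouse were 0.91 and 0.54 for Serpinc1 and 0.45 and 0.82 for Serpind1. Protein S (Pros1), the cofactor of activated protein C, had an average difference of -0.15 with an adjusted p of 0.303.

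Plasminogen (Plg), the precursor of the clot-dissolving protease, was higher in both mole-rats. Naked mole-rat hearts had 9.92, 8.94 and 10.37, and Damaraland hearts 8.50, 8.75, 8.27, 7.92 and 8.30. Guinea pig hearts had 6.94, 7.47 and 6.26, and mouse hearts 5.97, 6.69 and 6.41. The order was naked, Damaraland and then the outgroups, with a gap at each step above the outgroups, which overlapped. On average the mole-rats differed by 2.42 (SE 0.23, adjusted p = 8.81e-08), and the naked mole-rat exceeded the Damaraland by 1.39 (SE 0.30, adjusted p = 7.82e-04). Tissue plasminogen activator (Plat) was called higher in the guinea pig heart than in each other species, at 10.13 ± 0.25 (SD, n = 3) against 9.06, 8.13 and 8.09. Antiplasmin (Serpinf2) was called higher in the naked mole-rat heart alone, by 1.47 over the mean of the others (SE 0.24, adjusted p = 5.35e-05). Without naked mole-rat replicate 1, the members called in the guinea pig heart alone were C3 and Serping1, and C7 and Plat were no longer called.

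The naked and Damaraland hearts differed in 20 of the 32 tested members, 14 higher and 6 lower in the naked mole-rat, beside 29.4% of all genes (14.2% higher and 15.2% lower). The higher members were C3, C7, Cfi, Vtn, F2, F5, Fga, Fgb, Fgg, F13a1, Serpinc1, Serpind1, Plg and Serpinf2. The lower ones were C1qb, C1qc, Masp1, Cfd, C6 and C3ar1. Called in the naked mole-rat alone, against each other species, were 12 members, beside 9.02% of all genes (4.87% higher and 4.14% lower): C3, Vtn, F5, Fga, Fgb, Fgg, Serpinc1, Serpind1, Plg and Serpinf2 higher and C1qb and C1qc lower. The Damaraland mole-rat had 1 such member, beside 6.76% of all genes (3.86% higher and 2.9% lower). The guinea pig had 4, beside 6.61% (3.99% higher and 2.62% lower), and the mouse 2, beside 10.4% (6.6% higher and 3.8% lower). Of the tested hepatocyte markers, 12 of 12 were higher in the naked than in the Damaraland heart and 11 of 12 were called in the naked mole-rat alone.

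The level in heart as a percentage of the level in the liver of the same species, from reads scaled to each library's total, differed widely between members. These levels come from tables normalised separately and were not tested. The 14 hepatocyte markers had a median of 1.23% in naked mole-rat hearts, 0.183% in Damaraland, 0.0919% for guinea pig and 0.0448% for mouse. Their middle values, between the quartiles, ran from 1.10% to 1.48% in the naked and from 0.163% to 0.267% in the Damaraland mole-rat. In the naked mole-rat, the 10 members higher in its heart alone lay at 1.18% (Vtn) to 3.06% (C3) of liver. Fga, Fgb and Fgg were at 1.21%, 1.31% and 1.38%, near the marker median. In the Damaraland heart the same chains were at 0.178%, 0.245% and 0.278%.

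Some members lay further from the marker median in at least 1 species. Of the 14 members higher in mole-rat hearts on average, C4b (4.21%) and Vwf (687%) had the highest percentages in the naked mole-rat. In the Damaraland mole-rat the highest were Vwf (964%), C2 (7.44%), C4b (6.96%), C6 (4.53%), F10 (2.87%), C3 (1.48%) and F2 (0.529%). In the naked mole-rat C6 was at 1.36% and F10 at 1.15%, beside the marker median of 1.23%. In the guinea pig and mouse C6 was at 0.072% and 0.0448% and F10 at 0.0854% and 0.0432%, near the marker medians. C4b was at 8.59% of liver in the guinea pig and 0.318% in the mouse, with the guinea pig liver level itself low. Members above 100% of liver were Vwf, C5ar1, C7, F8, F13a1 and C3ar1 in the naked mole-rat, and they numbered 6 there, 7 in Damaraland, 7 in guinea pig and 9 in mouse.

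**Figure D3:**
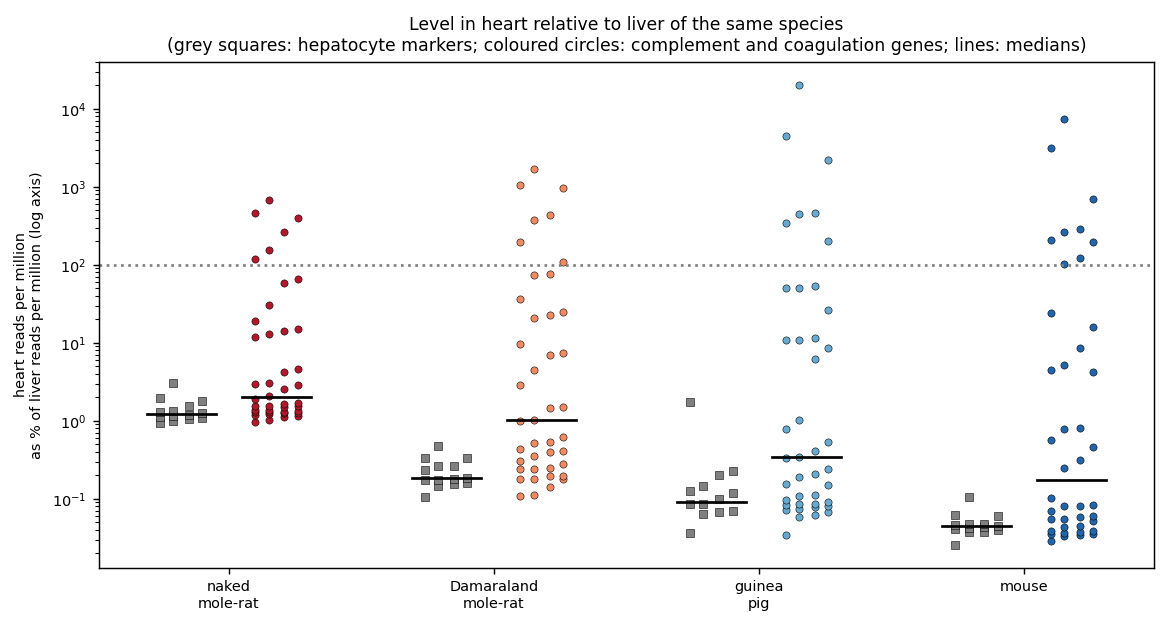
Heart level as a percentage of the liver level of the same species on a log axis, for hepatocyte marker genes and for the complement and coagulation genes, with a line at each median. The markers centre on 1.23% in the naked mole-rat and on 0.0448% in the mouse. Serpina6, at 0 in guinea pig heart, cannot be drawn on this axis but counts in the median.

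In the liver, the main source of these proteins, fewer members differed: 6 were higher and 1 lower in the mole-rats. These 7 of 42 are 16.7%, beside 28.1% of all genes tested (15.1% higher and 13% lower). The median difference was 0.19 over the members and 0.02 over all genes, and the median size was 0.52 against 0.58. The higher members were C4b, C7, F5, F13a1, Serpind1 and Plat, and the lower one was C8a. C7 was the only member called in all 4 contrasts, which 6.29% of all genes met (3.42% higher and 2.87% lower). Of the 14 hepatocyte markers tested in liver, 2 were higher and 1 was lower, with a median difference of 0.24.

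C7 values in liver were 8.30, 8.26, 7.53 and 7.67 in naked and 9.23, 8.59, 8.58, 10.10 and 9.89 in Damaraland mole-rats. Guinea pig livers had 6.03, 6.47 and 6.25, and mouse livers 6.05 and 5.70. The groups did not overlap between mole-rats and outgroups, and the Damaraland mole-rat was above the naked mole-rat. The mole-rat difference was 2.55 (SE 0.24, adjusted p = 6.81e-08), and the naked minus Damaraland difference was -1.34 (SE 0.29, adjusted p = 5.47e-04). Summed fibroblast markers in liver were 4355 to 7810 scaled reads in naked mole-rat, 1885 to 4867 in Damaraland, 11076 to 15712 in guinea pig and 3231 to 3387 in mouse. Of 9 tested fibroblast markers, 3 were lower in the mole-rat livers on average and none higher, beside 13% and 15.1% of all genes. In all 4 mole-rat against outgroup contrasts 2 were lower, beside 2.87% of all genes. In the guinea pig liver alone 3 were higher, beside 5.1%. Between the mole-rat livers, 3 of these markers were higher in the naked mole-rat, beside 16.6%. Their part in the C7 result was not tested.

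C4b in liver was low in the guinea pig. Its values were 16.13, 16.24, 16.13 and 16.67 in naked mole-rat and 13.71, 16.03, 14.66, 16.12 and 15.81 in Damaraland livers. Guinea pig livers had 12.90, 8.53 and 9.68, and mouse livers 15.18 and 15.27. The guinea pig lay below every other library, and the mouse lay among the Damaraland values. The average difference was 2.98 (SE 0.54, adjusted p = 1.2e-04). It rested on the guinea pig, since the naked mole-rat exceeded the mouse by 1.07 (adjusted p = 0.273) and the Damaraland mole-rat by 0.04 (adjusted p = 0.969), neither of which passed. The guinea pig was called below each other species, with a difference from their mean of -5.23 (SE 0.64, adjusted p = 1.8e-06).

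Factor XIII A (F13a1) was called in the naked mole-rat liver alone, although both mole-rats lay above the outgroups. Naked mole-rat livers had 8.83, 9.0, 8.36 and 8.94, and Damaraland livers 5.73, 6.05, 5.52, 5.62 and 5.42. Guinea pig livers had 4.83, 4.29 and 4.75, and mouse livers 5.38 and 4.96. The lowest Damaraland library was just above the highest mouse library. The Damaraland minus mouse difference was 0.50 and did not pass (adjusted p = 0.0699). The outgroup means, 4.62 for guinea pig and 5.17 for mouse, lay near the floor of 4.2893. F13a1 was therefore not tested when every species had to be at least 1 above the floor. On average the mole-rats differed by 2.33 (SE 0.16, adjusted p = 9.3e-10), and the naked minus Damaraland difference was 3.11 (SE 0.18, adjusted p = 1.62e-10). Macrophage markers summed to 7835 to 11601 scaled reads in naked mole-rat, 3161 to 4684 in Damaraland, 7056 to 10509 in guinea pig and 3706 to 4523 in mouse livers. Cd163 was at 0 in every naked mole-rat liver, and their part in the F13a1 result was not tested.

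Tissue plasminogen activator (Plat) in liver was highest in the naked mole-rat and lowest in the mouse. Naked mole-rat livers had 10.77, 10.81, 10.29 and 10.64, and Damaraland livers 7.14, 6.36, 7.67, 7.44 and 6.96. Guinea pig livers had 8.17, 8.02 and 8.19, above the Damaraland, and mouse livers had 4.99 and 4.96, near the floor. The mole-rat difference was 2.32 (SE 0.18, adjusted p = 4.04e-09). The naked mole-rat was called higher, and the mouse lower, than each other species. Endothelial markers summed to 9432 to 12239 scaled reads in naked mole-rat, 9647 to 11539 in Damaraland, 14418 to 18447 in guinea pig and 5422 to 6273 in mouse livers, and their part was not tested.

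C8a, the alpha chain of the pore component C8, was the member lower in mole-rat livers. Its values were 11.69, 12.05, 12.21 and 11.52 in naked and 12.48, 12.59, 12.56, 13.43 and 12.50 in Damaraland livers. Guinea pig livers had 13.34, 13.04 and 13.48, and mouse livers 14.01 and 14.02. The species ran in the order naked, Damaraland, guinea pig and mouse, and 1 Damaraland liver, from the female, overlapped the guinea pig. The average difference was -1.36 (SE 0.17, adjusted p = 2.13e-06), and -1.45 without that liver.

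Factor V (F5) in liver differed by 1.01 (SE 0.18, adjusted p = 7.5e-05), at the size threshold. It was short of it at 0.93 with quantile normalisation, at 0.91 without guinea pig replicate 2, at 0.96 and 0.95 without naked mole-rat replicates 1 and 2, at 0.99 and 0.98 without Damaraland replicates 2 and 4, and just under 1 without Damaraland replicate 3. Serpind1 differed by 1.13 (SE 0.21, adjusted p = 1.59e-04) and by 0.97 without guinea pig replicate 2. For both genes the naked mole-rat was called above each outgroup and the Damaraland mole-rat above neither. The Damaraland differences from guinea pig and mouse were 0.33 and 0.69 for F5 and 0.67 and 0.65 for Serpind1. The naked mole-rat differences were 1.32 and 1.68 for F5 and 1.61 and 1.58 for Serpind1. C5ar1 was lower on average by just under the size threshold (SE 0.15, adjusted p = 1.34e-05). This difference rested on the guinea pig, at 6.93 against 5.17 in naked mole-rat, 5.04 in Damaraland and 5.28 in mouse livers, all near the floor. Neither the naked (-0.11, adjusted p = 0.699) nor the Damaraland mole-rat (-0.24, adjusted p = 0.352) was called against the mouse. The average difference passed with quantile normalisation (-1.12) and with voom on the recovered reads (-2.14). It also passed without guinea pig replicate 2 or 3, Damaraland replicate 2 or 3, or naked mole-rat replicate 2, 3 or 4.

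**Figure D4:**
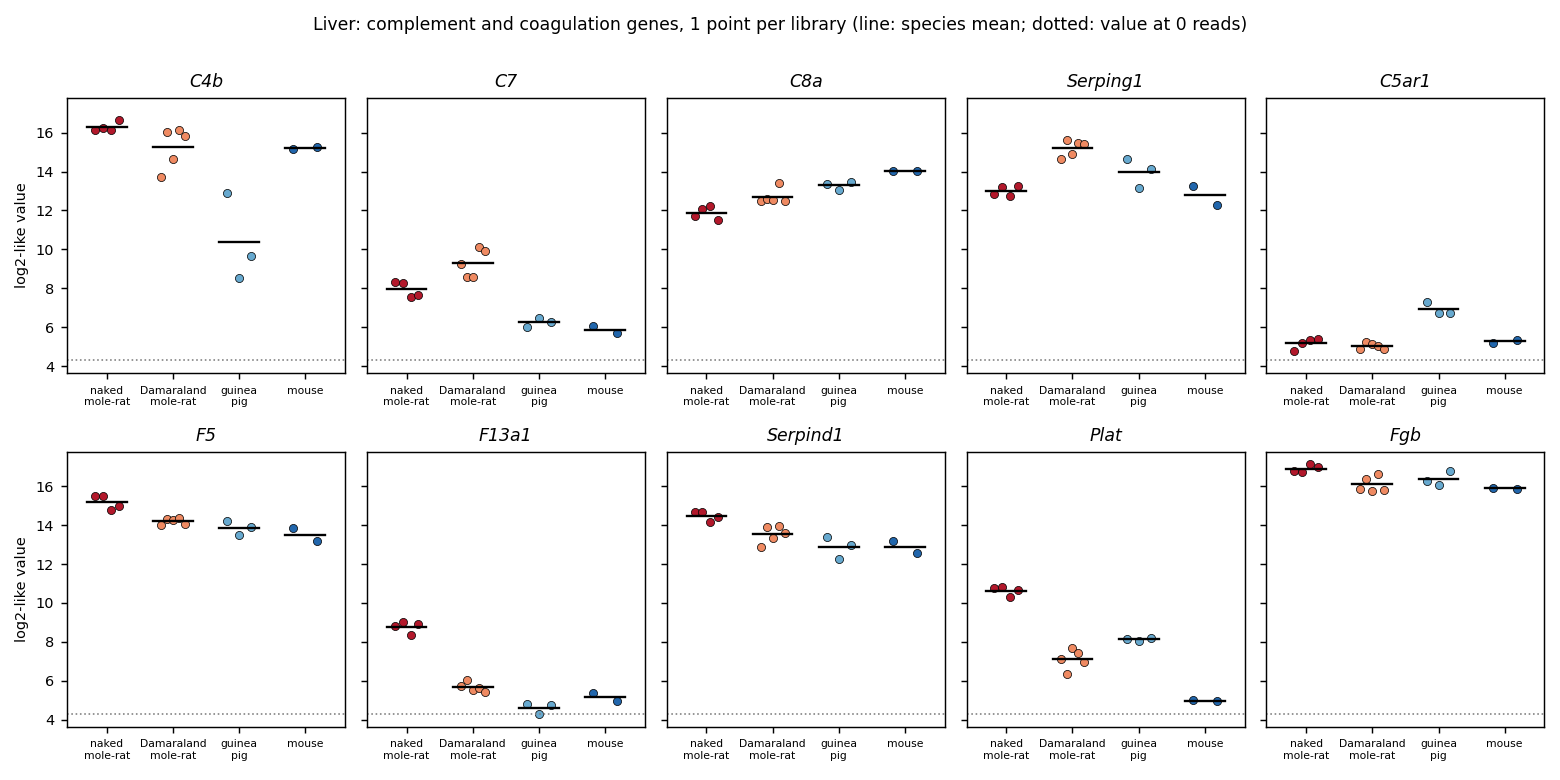
Log2-like values in liver for selected complement and coagulation genes, with 1 point per library, a line at each species mean and a dotted line at the value of 0 reads. C7 in the mole-rats lies above all outgroup libraries, C4b is lowest in the 3 guinea pig livers, and Plat is highest in the naked mole-rat.

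Several members with large differences in heart, and other central genes, were not called in liver. C3 differed by 0.33 (SE 0.21, adjusted p = 0.187) on average. The fibrinogen chains Fga, Fgb and Fgg differed by 0.52 (adjusted p = 0.0403), 0.36 (adjusted p = 0.124) and 0.27 (adjusted p = 0.313), none reaching the size threshold. F2 differed by -0.61 (SE 0.17, adjusted p = 0.00393), F9, the protease that factor VIII assists, by -0.29 (adjusted p = 0.187), and Plg by 0.07 (adjusted p = 0.739). Serpinc1 differed by 0.58 (SE 0.21, adjusted p = 0.0231) and Vwf by 0.71 (SE 0.15, adjusted p = 3.79e-04). Serping1 differed by 0.74 (SE 0.24, adjusted p = 0.0124), C1qb by 0.12 (adjusted p = 0.72), C1qc by 0.63 (SE 0.20, adjusted p = 0.0108), Cfd by -0.53 (adjusted p = 0.0691) and F3 by -0.08 (adjusted p = 0.708). The members not called in liver ran from -0.90 for the contact protease Klkb1, other than C5ar1, to 0.92 for Pros1, which passed at 1.01 without naked mole-rat replicate 4. An adjusted p above the threshold does not show that these livers were alike.

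The livers of the mole-rats differed from each other in 16 members, 9 higher and 7 lower in the naked mole-rat, beside 34.2% of all genes (16.6% higher and 17.6% lower). Higher were C1qb, Cfp, C4bp, Vtn, Klkb1, F10, Vwf, F13a1 and Plat, and lower were Masp1, C6, C7, Serping1, C3ar1, F12 and F8. For the C1 inhibitor Serping1, naked mole-rat livers were at 13.00 ± 0.25 (SD, n = 4) and Damaraland livers at 15.21 ± 0.42 (SD, n = 5), a difference of -2.21 (SE 0.29, adjusted p = 3e-06). Factor VIII (F8) differed by -2.10 (SE 0.22, adjusted p = 2.15e-07), with the Damaraland livers at 10.60 ± 0.32 (SD, n = 5) above each other species. C4bp, which disables the convertase formed from C4 and C2, was higher in the naked mole-rat by 1.81 (SE 0.27, adjusted p = 1.18e-05).

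Members called in a single liver species were near or below the share of all genes in number. In the naked mole-rat 4 members were called against each other species (beside 10.3% of all genes, 5.83% higher and 4.45% lower): Vtn by 1.52, F13a1 by 3.62 and Plat by 3.89 above the mean of the others, and Masp1 by -1.31. In the Damaraland mole-rat these were C7, Serping1 and F8, by 2.59, 1.96 and 1.67 (beside 8.81% of all genes, 5.51% higher and 3.3% lower). The guinea pig had C4b lower and Cfi and C5ar1 higher, by 1.37 and 1.76 (beside 9.38% of all genes, 5.1% higher and 4.28% lower). In the mouse, Masp2, a lectin pathway protease, was higher by 1.58, and C1qc, Pros1 and Plat were lower by -1.65, -1.99 and -3.65 from the mean of the others (beside 12.2% of all genes, 6.33% higher and 5.83% lower).

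Other genes of the 2 systems were taken from fixed lists of 32 names each. Of 13 matched further complement genes, 7 were tested in heart, with 3 higher and none lower in the mole-rats. The shares of all genes tested in heart were 10.8% higher and 12.6% lower. In liver 12 were tested, with 5 higher and 1 lower, beside 15.1% and 13% of all genes. Mbl2, a mannose-binding lectin that starts the lectin pathway, was higher by 3.29 in heart, with naked mole-rat hearts at 7.72 and Damaraland at 10.39 against 5.97 for guinea pig and 5.55 for mouse. Cr1l, a complement regulator, was higher by 2.42 in heart and 2.14 in liver on average, with the guinea pig at 5.36 and 4.39, at or near the floor. The mouse went the other way from the naked mole-rat, which differed from it by -0.47 in heart (9.37 against 9.84) and by -1.39 in liver (8.39 against 9.78). Cd93, an endothelial surface protein, was higher in liver by 2.48, and Colec10, a collectin, lower by -1.04.

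Of 22 matched further coagulation genes, 15 were tested in heart, with 3 higher and 1 lower, beside 10.8% and 12.6% of all genes. In liver 18 were tested, with 5 higher and 2 lower, beside 15.1% and 13% of all genes. The averages that follow can rest on a single species. A2m, a broad protease inhibitor, was higher by 3.17 in heart and 6.32 in liver, and its mouse liver value was 5.27 against 14.75 in guinea pig. Plau, urokinase, the other plasminogen activator, was higher by 2.25 in heart. Anxa2, a cell-surface partner of plasminogen, was higher in liver by 3.39, and S100a10, its binding partner, was lower in heart by -1.37. Proz, the cofactor of an inhibitor of activated factor X, and F2r, the thrombin receptor, were lower in liver by -1.61 and -1.41.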

How the data were processed

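The authors deposited, for each tissue, 1 table of log2-like values after variance stabilisation, made separately, per the file headers, so tests were run within a tissue. The submitters' processing notes name cutadapt, Salmon, DESeq2 and the build GRCm38; the assignment of genes between species is not given in the sources used here, and the values hold no correction for gene length. Of the columns, 26 belong to other series and were not used. Mouse identifiers were matched to symbols for 13921 of 13928 genes. Inverting the transform gave whole reads for 100% of values (tolerance 0.01), which gave the depths.

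The deposited log2-like values were fitted with limma 3.58.1 in R 4.3.3 (a coefficient per species, variance trend, Benjamini-Hochberg over all genes tested). Calls needed an adjusted p under 0.05 and a difference of at least 1. Genes whose mean over all libraries was under floor + 1 were left out. Samples came from separate animals per group; species also differ in age. The members and gene lists were chosen with earlier results of these data known. Members named with values were those called in all 4 mole-rat against outgroup contrasts, the 5 largest average differences per direction, the 3 largest per species alone, and a fixed list of central genes; others were added for completeness of the roles. Marker lists covered hepatocytes, acute-phase genes, macrophages, endothelium, fibroblasts, adipocytes, platelets, red cells and cardiomyocytes; 1 gene of the hepatocyte list is not reported here and is in none of that list's counts, sums, medians or quartiles. The steps were tested on simulated data. Alternatives were no size threshold, other filters on low values, quantile normalisation, a block for replicate number, removal of each library in turn, and limma's voom on the recovered reads, scaled by the size factors recovered from the table and chosen after seeing the data in place of the planned TMM scaling.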

Additional observations from a re-analysis of the deposited data

Results flagged for a closer look

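Among 72 groups of 4 or 5 libraries compared for the members, 3 held a library far from the others of its group, and chance gives about 1 in 20. C2 was 9.42 in Damaraland heart replicate 5, against 7.98 to 8.35 in the other Damaraland hearts. C3 was 12.31 in the same heart, against 9.68 to 10.28 in the others. C8a was 13.43 in Damaraland liver replicate 4, the only library from a female, against 12.48 to 12.59 in the other Damaraland livers.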

How the results depend on the processing

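With no size threshold, the counts rose to 28 (heart) and 25 (liver) on average, beside 67.3% and 68.0% of all genes, to 34 between the mole-rat livers (67.7%), to 13, 6, 7 and 9 for the naked mole-rat, Damaraland, guinea pig and mouse livers alone (24.5%, 21.5%, 21.2% and 25%), to 3 and 6 for the Damaraland and mouse hearts alone (19.6% and 26.2%), and to 2 for livers in all 4 contrasts (15.9%). Testing only genes above floor + 1 in every species gave 11 in heart on average (19.3% of all genes), 3 in all 4 contrasts (3.75%), 12 between the mole-rat hearts (26.4%), 0 and 1 for the Damaraland and mouse hearts alone (5.98% and 9.48%) and 2 for the naked mole-rat liver alone (8.43%); fewer genes were tested. Voom gave 22 in heart and 8 in liver on average (36.0% and 37.3% of all genes) and 4 for the mouse heart alone (16.6%). Leaving out 1 library at a time gave in heart 16 to 20 members on average, 4 to 6 in all 4 contrasts, 19 to 21 between the mole-rats, and 11 to 13, 1, 2 to 4 and 2 to 3 for each species alone (naked, Damaraland, guinea pig, mouse). The liver counts were 6 to 9 on average, 1 in all 4 contrasts, 13 to 19 between the mole-rats, and 3 to 6 (naked), 3 to 4 (Damaraland), 3 to 4 (guinea pig) and 4 to 5 (mouse) alone. No fit omitted a mouse liver, since 1 would remain. Without guinea pig liver replicate 2, C1qb turned to -0.05 (range over single libraries left out -0.05 to 0.32) and Plg to -0.08 (range -0.08 to 0.15) in liver, and with voom F3 turned to 0.26; none of these passed in any case, and the cause was not tested. Replicate numbers do not pair the samples: the deviations of same-numbered libraries correlated by -0.26 to 0.30 in heart (2 of 18 pairs over 0.1) and -0.23 to 0.15 in liver (5 of 16). With a replicate block the counts were 17, 5, 22, 13, 1, 4 and 2 in heart and 9, 1, 15, 4, 3, 3 and 4 in liver, in the order average, all 4 contrasts, between mole-rats, naked, Damaraland, guinea pig and mouse alone. Of 46 average differences of single genes followed, 18 called and 8 not called stayed on the same side of the thresholds in each alternative in which the gene was tested. Differences of genes near the floor are compressed, and depth limits them most in naked mole-rat heart replicate 3.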

Other observations

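The guinea pig C4b values are given by animal, for the 3 guinea pigs that gave both tissues. The animal with the highest heart value, 9.12 (475.4 scaled reads), also had the highest liver value, 12.9 (7615 scaled reads). The others had heart values of 7.61 (122.2 scaled reads) and 7.35 (91.45 scaled reads) and liver values of 8.53 (330.5 scaled reads) and 9.68 (779.6 scaled reads). The order of those 2 animals was not the same in both tissues, and 3 animals allow no test.

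Acute-phase genes, liver products whose levels change in inflammation, were higher in mole-rat hearts on average in 6 of 7 tested cases. Their median difference was 2.08. In all 4 mole-rat against outgroup contrasts 1 was called higher, and 6 were called higher in the naked mole-rat alone. The shares of all genes for these were 2.06% and 4.87%. On average, 10.8% of all genes tested in heart were higher. Ahsg and Ambp are in both this list and the hepatocyte list, so the results of these lists are not separate. In liver 5 of 11 were higher and 2 lower, beside 15.1% and 13% of all genes, with a median difference of 0.38. Their summed level in heart was 4288 to 11302 scaled reads in naked mole-rat, 665 to 1955 in Damaraland, 316 to 1047 in guinea pig and 891 to 1477 in mouse. Platelet genes, of which 3 were tested in each tissue, had none called in heart and 1 called lower in liver. The only red cell gene matched was lower in mole-rats on average, by -1.47 in heart and -2.33 in liver. It was called higher in the mouse alone in both tissues, by 2.08 in heart and 3.83 in liver over the mean of the others. Guinea pig livers, at 62 to 192 scaled reads, overlapped the naked (62 to 126) and Damaraland (36 to 108) livers. Mouse livers had 1556 to 1949.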
